A study of Mus musculus with 8 samples.

Results

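The EGF receptor family and its ligands were followed as 10 genes chosen by name, the receptors Egfr, Erbb2, Erbb3 and Erbb4 and the ligands Hbegf, Areg, Ereg, Tgfa, Btc and Egf. They were found through the RefSeq accessions of the probes on a one-colour mouse expression array. All 10 genes had a probe, which made 21 of the 41174 probes and 10 of the 18842 named genes on the array. The RNA came from N31 cells, neural progenitors (NPC) that had been made from embryonic stem cells of the mouse. The line is the only one used, and the cells ectopically expressed W20 or, as the control, EGFP. The study's title speaks of bacterial proteins that accelerate reprogramming, and the labels do not say which protein W20 is. There were 4 groups of 2 arrays each: W20 cells 72 h after reprogramming was started, EGFP cells at 72 h, W20 cells kept as NPC, and EGFP cells kept as NPC. All cells grew on gelatin. The NPC groups were in RHB basal medium with EGF at 10 ng/ml and human bFGF at 10 ng/ml. The 72 h groups first stayed for 48 h in the medium of the NPC with doxycycline (Dox) added at 40 ng/ml. They then spent 24 h in GMEM with 10% KSR, ACTH, sodium pyruvate, nonessential amino acids, 2-mercaptoethanol, LIF at 1000 U/ml and Dox at 40 ng/ml. The wording of the labels leaves unclear whether EGF and bFGF were present in these last 24 h.

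The 4 receptors of this family are tyrosine kinases that signal as pairs. Egfr, Erbb3 and Erbb4 bind ligands, Erbb2 has no known ligand of its own and is the preferred partner of the others, and Erbb3 has little kinase activity. The ligands are made as membrane proteins and released by proteases, and the active receptors feed the Ras-ERK and PI3K-Akt pathways. EGF together with FGF keeps neural progenitors dividing in culture.

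The upstream stretches of 3 members are printed: Egfr and Erbb2, which were lower in W20 cells at both stages, and Areg, which was lower at 72 h than in NPC. Each stretch is the 250 bases before the gene's start in RefSeq's annotation of GRCm38.p6, 5′ to 3′ on the gene's strand, which is the plus strand for all 3. Egfr is at chr11:16751953-16752202, Erbb2 at chr11:98412234-98412483 and Areg at chr5:91139349-91139598. Capitals mark matches to 6 motifs searched on both strands, namely the GC box GGGCGG, the CCAAT box CCAAT, the TATA box TATAAA, the cAMP response element TGACGTCA, the AP-1 site TGANTCA and the E-box CACGTG.
Egfr: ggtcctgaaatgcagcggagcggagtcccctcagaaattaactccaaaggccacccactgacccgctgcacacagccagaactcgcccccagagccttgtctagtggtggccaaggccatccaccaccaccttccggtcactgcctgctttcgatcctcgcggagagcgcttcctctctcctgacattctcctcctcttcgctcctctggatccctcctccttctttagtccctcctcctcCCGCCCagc
Erbb2: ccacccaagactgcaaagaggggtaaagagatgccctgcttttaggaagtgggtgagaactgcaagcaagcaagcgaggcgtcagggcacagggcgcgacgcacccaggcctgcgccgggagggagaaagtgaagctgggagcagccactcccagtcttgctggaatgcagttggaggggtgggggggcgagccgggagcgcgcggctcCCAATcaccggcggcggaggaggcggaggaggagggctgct
Areg: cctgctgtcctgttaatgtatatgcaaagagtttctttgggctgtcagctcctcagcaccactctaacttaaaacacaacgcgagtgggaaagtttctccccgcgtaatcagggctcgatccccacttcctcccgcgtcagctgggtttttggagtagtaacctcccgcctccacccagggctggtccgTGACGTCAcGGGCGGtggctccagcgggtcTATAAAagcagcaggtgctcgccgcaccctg

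The Egfr stretch held 1 match, a GC box on the opposite strand whose nearest base lies 4 bases before the start. The Erbb2 stretch held 1 CCAAT match, 37 bases before the start. The Areg stretch held a cAMP response element at 54 bases, a GC box at 47 bases and a TATA box at 26 bases before the start. Among 32851 mouse promoters of the same length, 32.7% held the GC box, 33.8% the CCAAT box, 12.4% the TATA box and 1.55% the cAMP response element. The other motifs were in 6.75% (AP-1) and 6.02% (E-box) of promoters and in none of these 3 stretches. Of the 10 members, 7 had an entry in the promoter table that could be searched and printed. The genes of 3 ligands lie close together on chromosome 5 in RefSeq's GRCm38.p6 annotation, Ereg at 91074617 to 91093649, Areg at 91139599 to 91148432 and Btc at 91357261 to 91402994.

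A level here is log2 of the spot's processed signal minus log2 of the 75th percentile of its array, so a level of 0 equals that percentile. The 75th percentile was 827 to 938 intensity units, 57.0% to 62.4% of spots were well above background, and no spot was saturated. Replicate arrays correlated at 0.998 to 0.999 over 22032 probes, and their number limits the precision. Nothing in the labels says that replicates came from separate cultures, so the spread behind each p-value is that of these arrays and may be technical only. All 4 arrays at 72 h were on one slide and all 4 NPC arrays on the other, so 72 h and slide cannot be told apart. Each slide held both W20 and EGFP arrays, so every W20 comparison was made within a slide. On both slides the W20 arrays were at positions 3 and 4 and the EGFP arrays at positions 1 and 2, so W20 and position cannot be told apart. Of 9 listed markers of neural progenitors, Nes, Sox2, Pax6, Slc1a3, Vim and Sox9 were above background on 8 of 8 arrays, Fabp7 on 5, Hes5 on 2 and Olig2 on 0. Vim is also made by mesenchymal cells, so the list supports the label only in part. A fall in a transcript can mean fewer cells that make it or less RNA per cell, which cannot be told apart here.

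Egfr, the receptor for EGF and for several of the other ligands, was lower in W20 cells at both stages and lower at 72 h in both kinds of cells. Its brightest probe (A_52_P106259, printed at 10 spots per array) had processed signals of 106.7 and 115.3 intensity units in W20 cells at 72 h, against 350 and 335 in EGFP cells at 72 h. In NPC the signals were 446 and 444 units in W20 cells, against 1246 and 1322 in EGFP cells. The levels were -2.95 and -2.85 in W20 cells at 72 h, -1.42 and -1.43 in EGFP cells at 72 h, -0.98 and -0.94 in W20 NPC, and 0.50 and 0.60 in EGFP NPC. No group overlapped another, and the order from high to low was EGFP NPC, W20 NPC, EGFP at 72 h and W20 at 72 h. The group means of the extremes, W20 at 72 h and EGFP NPC, lay 3.45 log2 units apart.

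Differences were tested with limma, which pools the spread over all 8 arrays, on 13619 genes, and p-values were adjusted by Benjamini-Hochberg over all of them. A gene was called at an adjusted p under 0.05. With W20, Egfr was 2.78-fold lower at 72 h (log2 difference -1.47 ± 0.053, SE, adjusted p = 4.04e-05) and 2.85-fold lower in NPC (-1.51 ± 0.053, adjusted p = 5.36e-05). At 72 h, 0.955% of the tested genes were as far below their EGFP level or farther, and in NPC 1.31% were. Over the 72 h, Egfr was 3.84-fold lower than in NPC in W20 cells (-1.94 ± 0.053, adjusted p = 1.18e-06) and 3.93-fold lower in EGFP cells (-1.97 ± 0.053, adjusted p = 2.04e-06). The W20 effect at 72 h minus that in NPC was 0.03 ± 0.075 (adjusted p = 0.761), so no difference between the stages was detected with this probe.

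The other 3 Egfr probes gave the same directions in the same order of groups, as the plot of the 4 probes shows. A_51_P392242, also printed at 10 spots, was above background on all 8 arrays, with group means of -4.49 in W20 cells at 72 h, -3.26 in EGFP cells at 72 h, -2.94 in W20 NPC and -1.56 in EGFP NPC. The single-spot probes A_52_P56471 and A_52_P674338 were also above background on all 8 arrays. Over the 4 probes the W20 difference was between -1.47 and -0.93 at 72 h and between -1.51 and -1.27 in NPC, and each was called over the 25727 probes tested, of which 42.5% were called at 72 h and 45.8% in NPC. All 4 probes were also called lower at 72 h than in NPC, with W20 (69.7% of probes called) and with EGFP (63.4% of probes called). The stage difference of the W20 effect was above 0 on all 4 probes, and the probes differed in its size and in whether it was called. The stage difference was 0.15 ± 0.117 for A_51_P392242 (adjusted p = 0.43, 21.9% of probes called), 0.33 ± 0.071 for A_52_P56471 (adjusted p = 0.0259) and 0.43 ± 0.15 for A_52_P674338 (adjusted p = 0.0981). With the mean of the probes it was 0.24 (adjusted p = 0.0486), and with normexp background correction it was 0.31 on the brightest probe (adjusted p = 0.0206).

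**Figure D1:**
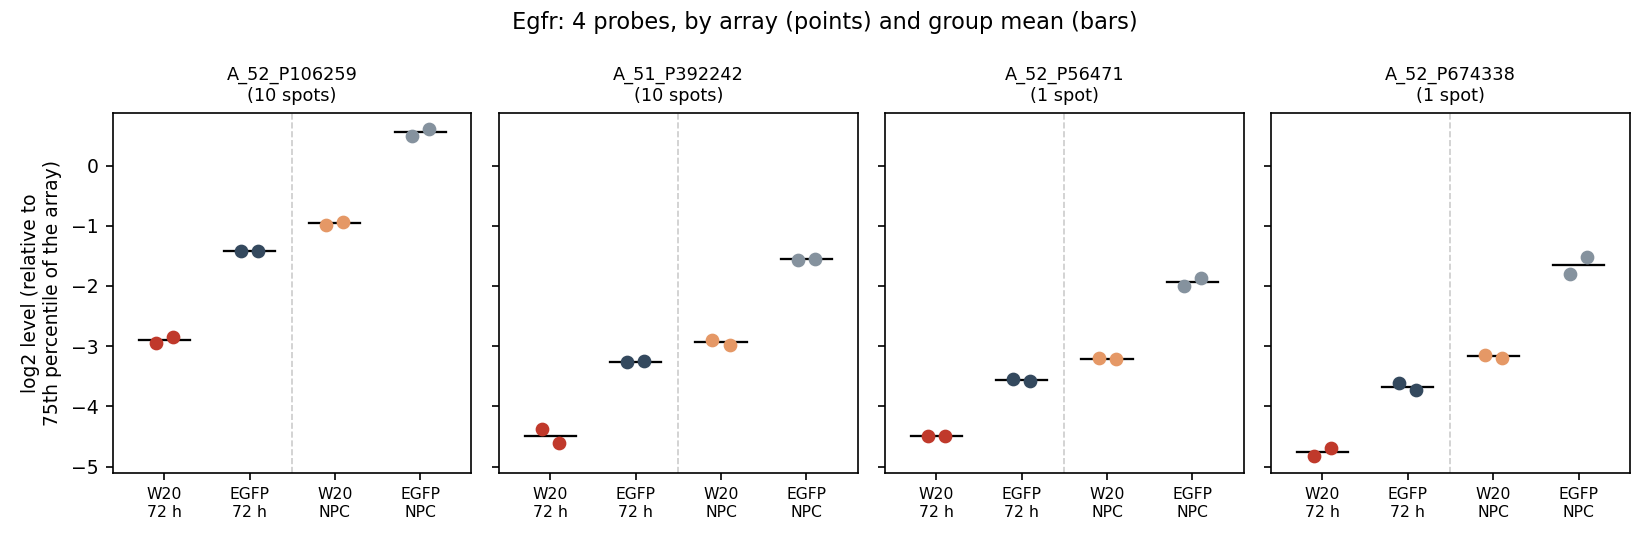
Levels of the 4 Egfr probes (log2, relative to the 75th percentile of the array) in each array (points) and group means (bars), with W20 and EGFP at 72 h left of the dashed slide boundary and W20 and EGFP in NPC right of it. In each of the 4 panels EGFP NPC is highest and W20 at 72 h is lowest.

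Markers of mesenchymal cells moved with Egfr between W20 and EGFP cells, and some markers of other lists did so too. All 6 of the 6 listed (Col1a1, Col1a2, Col3a1, Thy1, Postn and Pdgfrb) were called lower with W20 at both stages, with a median log2 difference of -1.05 at 72 h and -1.67 in NPC. Of all tested genes, 24.3% were called lower with W20 at 72 h and 23.7% in NPC. Their summed level, on a linear scale where 1 is the 75th percentile of the array, was 89.2 to 92.0 in W20 cells against 135 to 138 in EGFP cells at 72 h. In NPC it was 98.4 to 101.1 in W20 cells against 146 to 167 in EGFP cells. This sum is carried mostly by Col1a2, so it says little of the other markers. Col1a2 had group means of 6.34 in W20 cells and 6.90 in EGFP cells at 72 h. In NPC it had 6.52 in W20 cells and 7.05 in EGFP cells. Postn was above background on neither array of W20 cells at 72 h, and the other 5 were above it on all 8 arrays. From NPC to 72 h the median of the 6 was -0.068 with W20 and -0.24 with EGFP. The progenitor marker Slc1a3 had the group order of Egfr, from -1.85 in W20 cells at 72 h to 1.08 in EGFP NPC. Of 8 tested progenitor markers, 1 was called higher and 3 lower with W20 at 72 h, and 2 higher and 2 lower in NPC. Of 3 tested embryonic stem cell markers, 1 was called higher and 2 lower at 72 h, and 0 higher and 3 lower in NPC. The part of any of these markers in the Egfr difference was not tested. Of the immune markers, Ptprc, Aif1 and Itgam were above background on 0 of 8 arrays and Cd14 on 8, and Cd14 was called lower with W20 at 72 h (-0.21, adjusted p = 0.0053) and not in NPC (0.0013, adjusted p = 0.981). Of the endothelial markers, Pecam1, Cdh5 and Emcn were above background on 0 of 8 arrays, Kdr on 4 and Tek on 3. Kdr had group means of -2.69 in W20 cells and -3.51 in EGFP cells at 72 h, against -7.39 in W20 NPC and -7.62 in EGFP NPC.

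Erbb2, the co-receptor of the family, was lower with W20 at both stages by a smaller amount. Its brightest probe (A_52_P49250, 10 spots) had levels of -0.17 and -0.16 in W20 cells at 72 h, against 0.19 and 0.19 in EGFP cells at 72 h. In W20 NPC the levels were 0.0033 and -0.018, against 0.41 and 0.44 in EGFP NPC. All W20 arrays were below all EGFP arrays. The difference was -0.36 ± 0.029 at 72 h (1.28-fold lower, adjusted p = 0.000375) and -0.43 ± 0.029 in NPC (1.35-fold lower, adjusted p = 0.000197). Of the tested genes, 14.0% were as far below their EGFP level or farther at 72 h, and 11.3% in NPC. The stage difference of the W20 effect was 0.08 ± 0.041 (adjusted p = 0.217). From NPC to 72 h Erbb2 fell by 0.16 in W20 cells (SE 0.029, adjusted p = 0.0033) and fell by 0.23 in EGFP cells (SE 0.029, adjusted p = 0.000676). The W20 call of this stage change ended with spike-in scaling (adjusted p = 0.107) and the EGFP call with the mean of the probes (adjusted p = 0.0549). The second probe, the single-spot A_51_P216179, had W20 differences of -0.50 ± 0.184 at 72 h (adjusted p = 0.078) and -0.32 ± 0.184 in NPC (adjusted p = 0.206), neither called.

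Erbb3, the receptor with little kinase activity, and Erbb4, a neuregulin receptor, were not well above background on any array. This held for all 4 Erbb3 probes and all 3 Erbb4 probes. Over all probes and arrays the levels were -8.13 to -6.25 for Erbb3 and -8.15 to -6.63 for Erbb4. Neither gene entered the main fit, so no difference between groups is given for them.

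Hbegf, a ligand of Egfr and Erbb4 that also binds heparin, was lower with W20 at 72 h and not detectably changed by W20 in NPC. Its only probe had levels of 0.54 and 0.53 in W20 cells at 72 h, against 0.88 and 0.81 in EGFP cells at 72 h. In NPC it had 1.02 and 1.05 in W20 cells, against 1.00 and 0.97 in EGFP cells. The groups were apart at 72 h, and in NPC the W20 arrays lay only just above the EGFP arrays. The W20 difference was -0.31 ± 0.036 at 72 h (1.24-fold lower, adjusted p = 0.00115) and 0.05 ± 0.036 in NPC (adjusted p = 0.31). The difference between these effects was -0.36 ± 0.051 (adjusted p = 0.00476), a call that ended with spike-in scaling (adjusted p = 0.0743). Hbegf was lower at 72 h than in NPC with W20 (-0.50 ± 0.036, adjusted p = 5.06e-05). With EGFP it was -0.14 ± 0.036 (adjusted p = 0.014), and this call ended with median scaling (adjusted p = 0.203), spike-in scaling (adjusted p = 0.233) and normexp (adjusted p = 0.0643), and without EGFP 72 h replicate 2 (adjusted p = 0.0699) or EGFP NPC replicate 1 (adjusted p = 0.0708).

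Areg, amphiregulin, which binds Egfr, was lower at 72 h than in NPC in both kinds of cells and higher with W20 in NPC. Its only probe had levels of -2.22 and -2.26 in W20 cells at 72 h, against -2.27 and -2.39 in EGFP cells at 72 h. In NPC it had -0.53 and -0.62 in W20 cells, against -0.93 and -0.90 in EGFP cells. The 72 h arrays were all more than 1 log2 unit below the NPC arrays. Areg was 3.17-fold lower at 72 h than in NPC with W20 (-1.66 ± 0.054, adjusted p = 2.12e-06) and 2.67-fold lower with EGFP (-1.42 ± 0.054, adjusted p = 6.13e-06). The W20 difference was 0.09 ± 0.054 at 72 h (adjusted p = 0.206) and 0.34 ± 0.054 in NPC (1.26-fold higher, adjusted p = 0.00325). The difference between these W20 effects, -0.25 ± 0.076, was not called (adjusted p = 0.056). It was called with an intensity trend in the fit (adjusted p = 0.0403), with the trend and a robust prior (adjusted p = 0.0388), over genes above background on all 8 arrays (adjusted p = 0.0379) and without EGFP 72 h replicate 2 (adjusted p = 0.0373).

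Tgfa, transforming growth factor alpha, another Egfr ligand, was higher with W20 in NPC and not detectably changed by W20 at 72 h. On the single-spot probe A_52_P555423 its levels were -3.92 and -4.06 in W20 cells at 72 h, against -4.02 and -4.11 in EGFP cells at 72 h. In NPC they were -3.85 and -3.81 in W20 cells, against -4.58 and -4.47 in EGFP cells. The groups overlapped at 72 h and were apart in NPC. The W20 difference was 0.07 ± 0.065 at 72 h (adjusted p = 0.383) and 0.69 ± 0.065 in NPC (1.62-fold higher, adjusted p = 0.000529), and the effects differed by -0.62 ± 0.092 (adjusted p = 0.00574). With normexp the NPC difference was 0.14 (adjusted p = 0.267) and the difference of the effects 0.02 (adjusted p = 0.93). With EGFP, Tgfa was 1.37-fold higher at 72 h than in NPC (0.46 ± 0.065, adjusted p = 0.00123), and with normexp this value was -0.04 (adjusted p = 0.762). With W20 the stage difference was -0.16 ± 0.065 (adjusted p = 0.066), and it was called without W20 72 h replicate 1 (-0.23, adjusted p = 0.0289) and over genes above background on all 8 arrays (adjusted p = 0.0462). The 10-spot probe A_51_P415126 exceeded background on just 1 of the 8 arrays, so it did not enter the fit.

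Btc, betacellulin, a ligand of Egfr and Erbb4, had higher signals at 72 h than in NPC, but it entered the fit only through EGFP cells at 72 h. The probe A_52_P672689 had levels of -4.38 and -4.56 in W20 cells at 72 h, against -4.51 and -4.63 in EGFP cells at 72 h, and was well above background on 1 and 2 of these arrays. In NPC it had -5.23 and -5.42 in W20 cells and -6.10 and -5.54 in EGFP cells, on none of them well above background. A bound on a fold was then computed against the lowest signal well above background on each array, or the probe's own where higher. Btc was at least 1.77-fold higher at 72 h than in NPC with W20 and at least 2.01-fold higher with EGFP, bounds that were not themselves tested. The fitted differences, which use the NPC signals below background, were 0.85 with W20 (limma, adjusted p = 0.0072) and 1.25 with EGFP (adjusted p = 0.00158). Both were called, but Btc passed the filter through a group where it was high, so these calls are not independent of the filter. With normexp the EGFP difference was 0.04 (adjusted p = 0.795). The W20 difference at 72 h was 0.10 ± 0.188 (adjusted p = 0.692), and no fold can be given in NPC, where both groups were below background. A second Btc probe was above background on no array.

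Egf, the growth factor that was also in the medium, stayed near background. Its probe (A_52_P38627, 10 spots) had levels of -5.00 and -5.02 in W20 cells at 72 h, against -4.94 and -5.01 in EGFP cells at 72 h. In NPC it had -5.57 and -5.43 in W20 cells, against -5.23 and -5.01 in EGFP cells. The spots well above background numbered 8 and 2 of 10 in W20 cells at 72 h, 10 and 10 in EGFP cells at 72 h, 3 and 2 in W20 NPC, and 7 and 9 in EGFP NPC. Egf passed the filter only through the EGFP groups, the side where it was higher in NPC. With W20 in NPC it was at least 1.24-fold lower, a bound that was not itself tested. The fitted difference of -0.38, which uses W20 NPC signals below background, was called (limma, adjusted p = 0.012). That call ended with normexp (adjusted p = 0.205), with an intensity trend (adjusted p = 0.129), with the trend and a robust prior (adjusted p = 0.119) and without W20 NPC replicate 1 (adjusted p = 0.0584). With W20, Egf was at least 1.33-fold higher at 72 h than in NPC, again a bound that was not tested. The fitted difference of 0.49, which uses the same W20 NPC signals, was called (adjusted p = 0.00267), and with normexp it was not (adjusted p = 0.254). The EGFP stage difference was 0.15 ± 0.085 (adjusted p = 0.173). It was called with quantile scaling (0.21, adjusted p = 0.0439) and without EGFP NPC replicate 2 (0.26, adjusted p = 0.0298). Ereg, epiregulin, was above background on no array, with levels from -7.00 to -5.29, so it did not enter the main fit. With no filter on dim probes, Ereg was called for W20 at 72 h and for 72 h against NPC with W20. Those calls rest on signals below background.

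**Figure D2:**
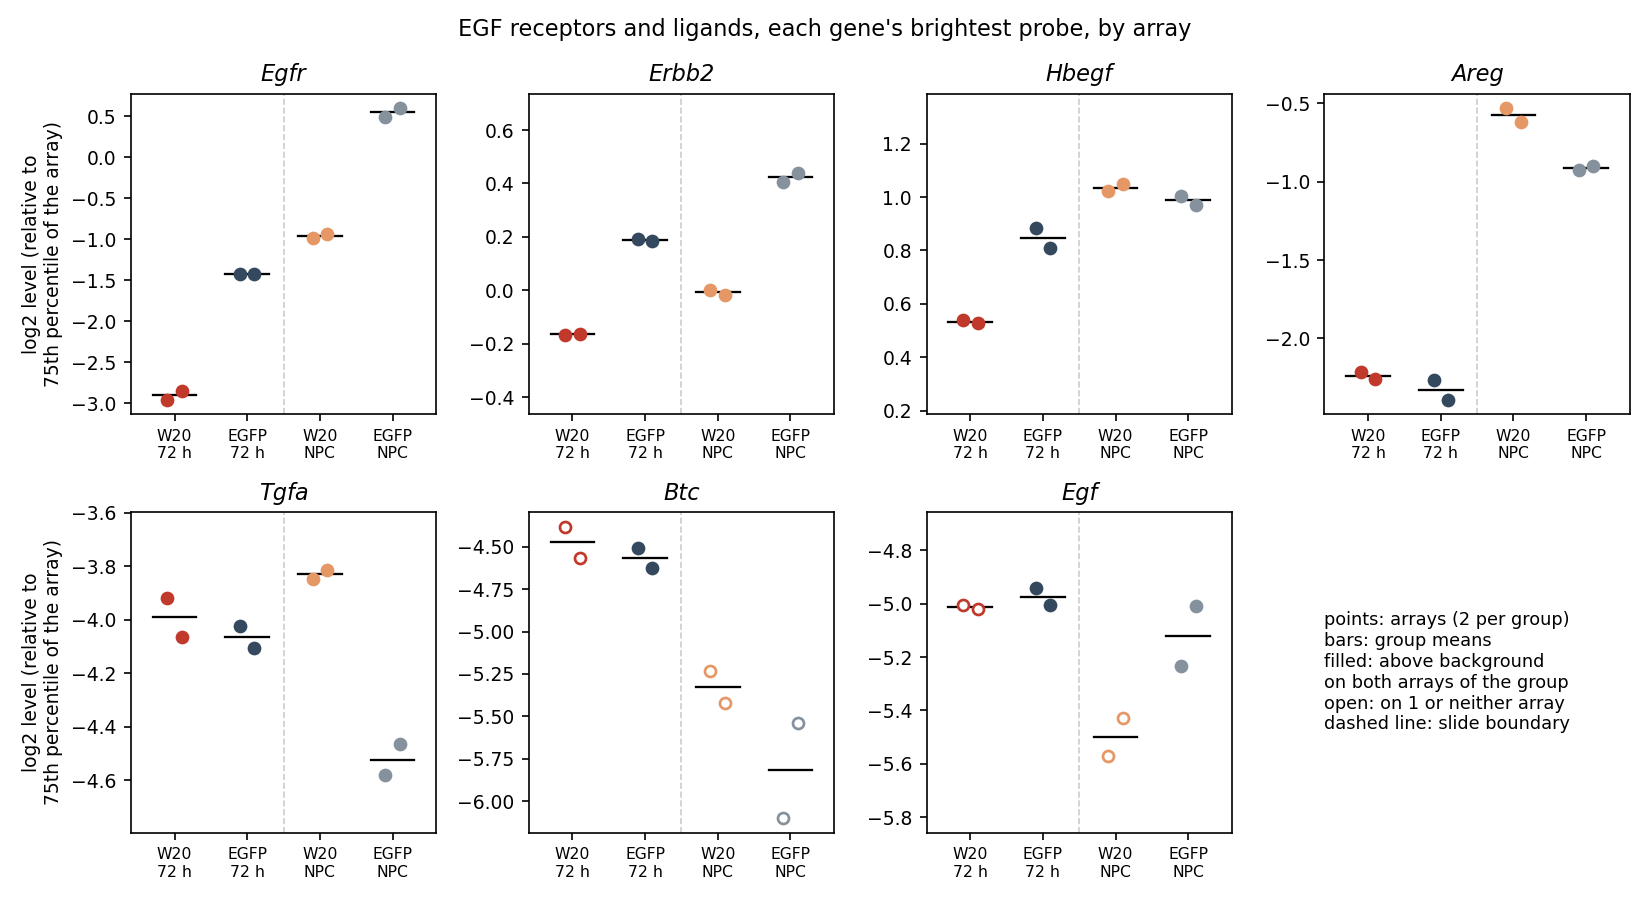
Levels of the 7 tested receptors and ligands (log2, relative to the 75th percentile of the array, each panel with its own range) in the 8 arrays, with bars at group means, W20 left of EGFP and 72 h left of NPC. Filled points mark groups with both arrays above background. Egfr spans 3.45 log2 units between group means and Areg 1.75, while Erbb2 spans 0.59 and Hbegf 0.50.

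Of the 10 genes, 7 had a probe well above background in both replicates of some group and so entered the fit. Btc did so only through EGFP cells at 72 h and Egf only through the EGFP groups, so their calls are not independent of the filter. With W20 at 72 h, 3 of the 7 were called, all lower (Egfr, Erbb2 and Hbegf), where 52.8% of all tested genes were called, 28.5% higher and 24.3% lower. Of all called genes there, 3875 of 7188 were higher, and with spike-in scaling 1676 of 4210. With W20 in NPC, 5 of the 7 were called, Areg and Tgfa higher and Egfr, Erbb2 and Egf lower, where 55.5% of all tested genes were called, 31.8% higher and 23.7% lower. The median log2 difference of the 7 was -0.04 at 72 h and 0.05 in NPC, beside 0.03 and 0.04 over all tested genes. These shares are near those of all genes, so the counts say nothing particular about the family. From NPC to 72 h, 6 of the 7 were called with W20 (of all tested genes 74.7%, with 37.5% higher and 37.2% lower) and 6 with EGFP (of all tested genes 69.9%, with 36.1% higher and 33.9% lower), in both cases 2 higher and 4 lower. The stage difference of the W20 effect was called for 2 of the 7, Hbegf and Tgfa, both with a lower value at 72 h, where 30.9% of all tested genes were called, 14.1% higher and 16.8% lower.

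**Figure D3:**
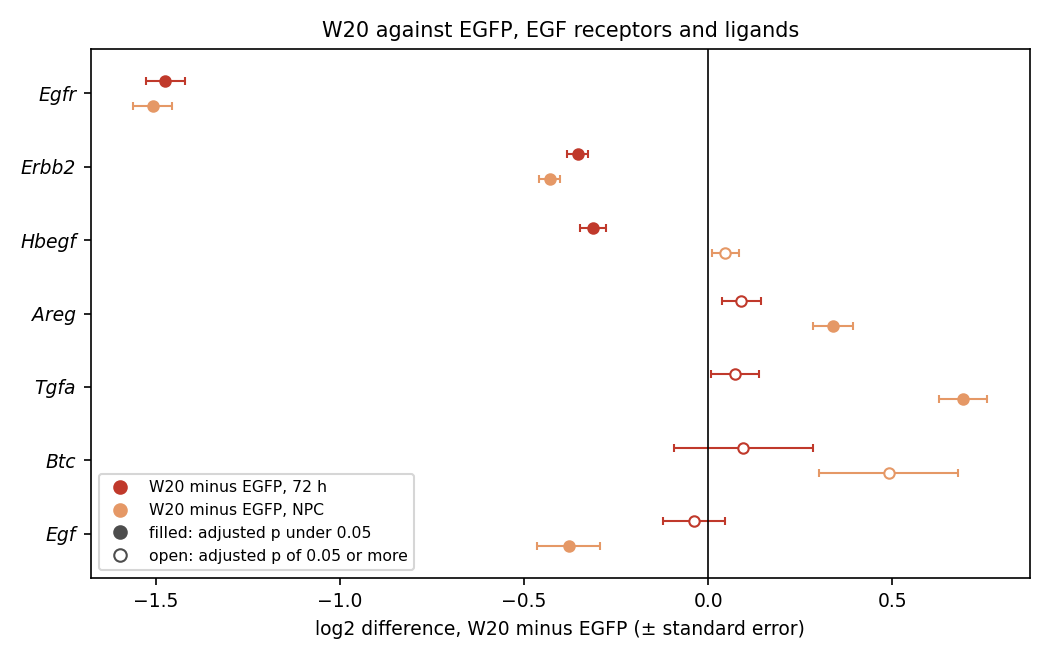
Log2 differences between W20 and EGFP cells, with standard errors, for the 7 tested receptors and ligands at 72 h (dark red, upper) and in NPC (orange, lower), from limma. Filled points have an adjusted p under 0.05. Egfr lies at -1.47 and -1.51, while Hbegf and Tgfa lie apart between the stages.

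Genes with the nearest profile to Egfr and Areg were taken by the Euclidean distance of the 4 centred group means among 12158 genes above background on all 8 arrays. Of the 10 members, only Egfr and Areg were above background on all 8 arrays with group means that spanned at least 1 log2 unit. Nearest to Egfr were Iigp1, an interferon-inducible GTPase, at a distance of 0.206, Dkk3, a secreted Dickkopf family protein, at 0.22, and Il17rd, an inhibitor of FGF signalling, at 0.304. Il17rd had group means of -0.60 in W20 cells at 72 h, 0.63 in EGFP cells at 72 h, 0.93 in W20 NPC and 2.73 in EGFP NPC. Nearest to Areg were Pla2g4a, a cytosolic phospholipase, at 0.038, Gfpt2, an enzyme of hexosamine synthesis, at 0.101, and Tnfaip2 at 0.107. Gfpt2 had group means of -1.83 in W20 cells at 72 h, -1.94 in EGFP cells at 72 h, -0.088 in W20 NPC and -0.40 in EGFP NPC. These distances rest on 4 group means and are a description.

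Among the family's other ligands, the neuregulins and epigen, 2 of the 5 listed were tested. Nrg1, a ligand of Erbb3 and Erbb4, was higher with W20 at 72 h (levels -3.25 and -3.73 in W20 cells against -4.50 and -3.96 in EGFP cells, 0.74 ± 0.22, adjusted p = 0.0328), and this call ended without replicate 1 of the W20 or EGFP 72 h group (adjusted p = 0.138 and 0.128), on dropping a single NPC array, whichever of the 4 it was (adjusted p between 0.0534 and 0.0536), and with the replicate block (adjusted p = 0.0537). Epgn, epigen, an Egfr ligand, was -0.19 ± 0.057 with W20 in NPC (adjusted p = 0.0306), a call that ended with quantile, median and spike-in scaling (adjusted p = 0.18, 0.181 and 0.0823) and on dropping any NPC array (adjusted p between 0.0592 and 0.132).

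Of 10 tested sheddases and partners, 1 was higher and 4 were lower with W20 at 72 h, and 4 were higher and 3 lower in NPC, where spike-in scaling gave 1 higher and 3 lower. Of all tested genes, 52.8% were called at 72 h (28.5% higher and 24.3% lower) and 55.5% in NPC (31.8% higher and 23.7% lower), and the counts of this and the following lists stand beside these shares. Adam17, the main sheddase of several of these ligands, had a W20 difference of -0.02 ± 0.03 at both stages (adjusted p = 0.558 at 72 h and 0.554 in NPC). Adam8, a metalloprotease, was 2.14-fold higher with W20 in NPC (adjusted p = 0.000136) and 1.43-fold lower with W20 at 72 h (-0.51 ± 0.063, adjusted p = 0.00142), and these effects differed by -1.61 ± 0.089 (adjusted p = 0.000285). Adam19, a metalloprotease that can cleave neuregulin, was 2.39-fold lower with W20 in NPC (-1.26 ± 0.075, adjusted p = 0.000152), with a difference of -0.076 ± 0.075 at 72 h (adjusted p = 0.433). At 72 h Cnih2, a cornichon protein, was 1.79-fold lower with W20 (-0.84 ± 0.072, adjusted p = 0.000423), and Timp3, an inhibitor of Adam17, was 1.48-fold lower (-0.57 ± 0.086, adjusted p = 0.00305). Cnih2 was lower with W20 in NPC too (-0.85, adjusted p over all probes = 0.00077).

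Of 18 tested receptor inhibitors, ubiquitin ligases and phosphatases, 6 were higher and 6 lower with W20 at 72 h (1 higher and 5 lower with spike-in scaling), and 5 were higher and 7 lower in NPC. Errfi1, which binds and inhibits Egfr and is induced by its signalling, had levels of 0.50 and 0.52 in W20 cells at 72 h, against 1.02 and 1.06 in EGFP cells at 72 h. In NPC it had 2.37 and 2.36 in W20 cells, against 2.56 and 2.55 in EGFP cells. It was lower with W20 at both stages, by -0.52 ± 0.031 at 72 h (adjusted p = 0.000132) and -0.19 ± 0.031 in NPC (adjusted p = 0.00323), and was also lower at 72 h than in NPC with W20 (-1.85 ± 0.031, adjusted p = 2.69e-07). Ptprj, a receptor phosphatase, was 1.79-fold lower with W20 in NPC (adjusted p = 0.000132), and Socs4, a suppressor of cytokine signalling linked to Egfr turnover, was 1.53-fold higher (adjusted p = 0.00125). Socs2, of the same family, was 1.38-fold higher with W20 at 72 h (adjusted p = 0.0197), and without replicate 1 of the W20 or EGFP 72 h group it was not called (adjusted p = 0.0925 and 0.0771). Socs2 was higher with W20 in NPC too (0.49, adjusted p over all probes = 0.0214).

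In the adaptors and Ras-ERK cascade, 6 of 22 tested genes were higher and 4 lower with W20 at 72 h, and 9 were higher and 3 lower in NPC. Grb7, an adaptor that binds Erbb2, was lower with W20 at 72 h (levels -2.55 and -2.48 in W20 cells against -1.52 and -1.51 in EGFP cells, -0.999 ± 0.039, adjusted p = 4.8e-05). In NPC Grb7 was lower with W20 by a smaller amount (-0.14, adjusted p over all probes = 0.0353). Mapk3, the kinase ERK1, was 1.40-fold lower with W20 in NPC (adjusted p = 0.000338) and also lower at 72 h (-0.22, adjusted p over all probes = 0.0104). Ksr1, a scaffold of the cascade, was 1.55-fold higher with W20 in NPC (adjusted p = 0.00489), and with normexp its difference was -0.0051 (adjusted p = 0.973). At 72 h Ksr1 was below background in both groups. Of 14 tested genes of the PI3K, Akt and STAT branches, 3 were higher and 2 lower with W20 at 72 h, and 4 were higher and 3 lower in NPC. At 72 h the transcription factor Stat5b was 1.49-fold higher (adjusted p = 0.000409) and the kinase Src 1.26-fold lower (adjusted p = 0.00147) with W20. In NPC Pik3r3, a regulatory subunit of PI3K, was 1.32-fold higher (adjusted p = 0.00654) and Stat3 1.25-fold lower (adjusted p = 0.0013). Of 15 tested endocytosis and recycling genes, 2 were higher and 0 lower with W20 at 72 h, and 4 were higher and 1 lower in NPC. Rab11fip1, a recycling adaptor, was higher at both stages on its brightest probe (0.54 ± 0.07 at 72 h, adjusted p = 0.0018, and 0.48 ± 0.07 in NPC, adjusted p = 0.00233). Its other probe had 0.32 at 72 h and 0.42 in NPC and was called at neither stage (adjusted p over all probes = 0.135 and 0.0646). The sorting adaptors Stam and Stam2 passed by a small margin, Stam at 72 h (0.16 ± 0.05, adjusted p = 0.0348) and Stam2 in NPC (0.29 ± 0.068, adjusted p = 0.0142). The Stam call ended with median and spike-in scaling (adjusted p = 0.0651 and 0.27), with the mean of its probes (adjusted p = 0.145), with the replicate block (adjusted p = 0.0556) and without any one of the 72 h arrays (adjusted p between 0.0771 and 0.127), and its other probes, with 0.033 and 0.16, were not called. The Stam2 call ended with spike-in scaling (adjusted p = 0.0631), with the mean of its probes (adjusted p = 0.0603), and without W20 NPC replicate 1 (adjusted p = 0.0592) or EGFP NPC replicate 2 (adjusted p = 0.0755), and its other probe had -0.02 in NPC and was not called.

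ERK-induced early and feedback genes, which are transcribed when the cascade below these receptors is active, were more often lower than higher at 72 h than in NPC. With EGFP, 3 of the 25 tested were higher and 21 lower at 72 h, with a median log2 difference of -1.001 beside 0.01 over all genes, of which 36.1% were called higher and 33.9% lower. With W20, 7 were higher and 16 lower, with a median of -0.56, where 37.5% of all genes were called higher and 37.2% lower. Those with large differences, named after their values were seen, were Fosl1, an AP-1 subunit (-3.89 ± 0.056 with W20, adjusted p = 2.23e-07, and -2.76 ± 0.056 with EGFP, adjusted p = 9.05e-07), and Etv4, an Ets factor (-3.59 ± 0.04 with W20, adjusted p = 1.25e-07, and -2.97 ± 0.04 with EGFP, adjusted p = 2.93e-07). The share of the slide and of the change of medium in these differences cannot be told apart from that of time. Markers of neurons and astrocytes also moved with the stage. Of 4 tested neuronal markers, 3 were called higher and 0 lower at 72 h with W20, and 2 higher and 1 lower with EGFP. Their summed level was 6.58 to 6.99 in W20 cells and 5.01 to 5.32 in EGFP cells at 72 h, against 1.34 to 1.35 in W20 NPC and 1.68 to 1.77 in EGFP NPC. The change of this sum is carried mostly by Stmn2, with group means of 2.12 in W20 cells and 1.85 in EGFP cells at 72 h, against -1.26 in both kinds of NPC. Of 4 tested astrocyte markers, 2 were called higher and 2 lower at 72 h with W20, and 0 higher and 4 lower with EGFP (median -1.45). The part of these markers in the differences was not tested.

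With W20, 5 of these 25 genes were higher and 11 lower at 72 h, and 6 were higher and 11 lower in NPC, with medians of -0.15 and -0.06. Of all tested genes, 52.8% were called at 72 h (28.5% higher and 24.3% lower) and 55.5% in NPC (31.8% higher and 23.7% lower). Counted in either direction, the shares of the list are not far from these. By direction, a larger share of the list than of all genes was called lower at both stages, and a smaller share higher. No set test was made, so whether this lean is particular to the list was not tested. Egr1, an immediate early transcription factor, had levels of 0.18 and 0.23 in W20 cells at 72 h, against 0.62 and 0.76 in EGFP cells at 72 h. In NPC it had -1.08 and -1.23 in W20 cells, against 1.51 and 1.69 in EGFP cells. Egr1 was 6.73-fold lower with W20 in NPC (-2.75 ± 0.087, adjusted p = 5.36e-05) and -0.48 ± 0.087 at 72 h (adjusted p = 0.00564), and the effects differed by 2.27 ± 0.123 (adjusted p = 0.000278). Egr2, a related factor, was 4.54-fold lower with W20 in NPC (-2.18 ± 0.077, adjusted p = 5.36e-05). At 72 h Egr2 was called lower by a smaller amount (-0.47, adjusted p over all probes = 0.00693). Dusp6, a phosphatase that switches ERK off, had levels of 1.76 and 1.75 in W20 cells at 72 h, against 2.30 and 2.36 in EGFP cells at 72 h, and was 1.49-fold lower (-0.57 ± 0.039, adjusted p = 0.000204). In NPC Dusp6 was lower with W20 by a larger amount (-0.96, adjusted p over all probes = 0.000172). Spry2, a feedback inhibitor of receptor signalling, was 1.54-fold lower with W20 at 72 h on its brightest probe (-0.63 ± 0.037, adjusted p = 0.000142), while its other probe had 0.03 and was not called. In NPC both Spry2 probes were called lower with W20, the brightest by -0.85 and the other by -0.35 (adjusted p over all probes = 0.000194 and 0.0277).

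**Figure D4:**
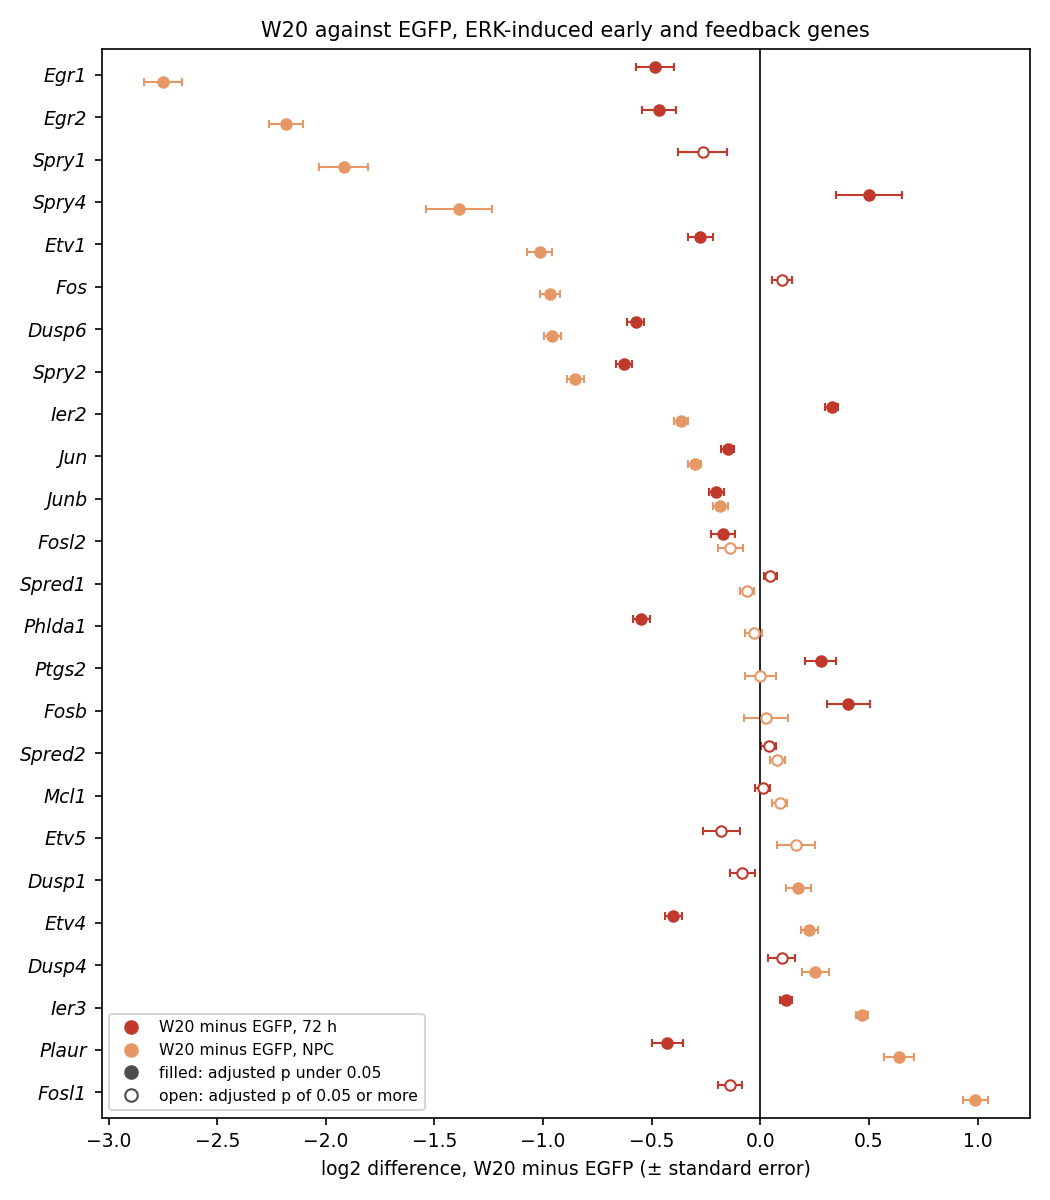
Log2 differences between W20 and EGFP cells, with standard errors, for 25 ERK-induced early and feedback genes at 72 h (dark red, upper) and in NPC (orange, lower), ordered by the NPC value. Filled points have an adjusted p under 0.05. Egr1 (-2.75) and Egr2 (-2.18) are lowest and Fosl1 (0.99) is highest in NPC, and 11 genes are called lower at each stage.

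For the other growth factor of the medium, 7 genes were listed, namely Fgfr1, Fgfr2, Fgfr3, Fgfr4, the related Fgfrl1, the co-receptor Klb and the ligand gene Fgf2. Of these, Fgfr1, Fgfr3, Fgfr4 and Fgfrl1 were tested, of which 1 was called higher and 1 lower with W20 at 72 h, and 3 higher and 1 lower in NPC. Fgfr1 was 1.27-fold lower with W20 at 72 h (-0.34 ± 0.032, adjusted p = 0.000544), and all 3 of its probes were called lower there. In NPC it went the other way and was called higher by a small amount (0.10 on its brightest probe). Over all probes, its 3 probes were not called in NPC (adjusted p between 0.0529 and 0.0876). Fgfrl1 was 1.15-fold higher at 72 h (adjusted p = 0.0172), but -0.18 in NPC (adjusted p = 0.0222), and in NPC Fgfr3 was 1.24-fold higher (adjusted p = 0.015) and Fgfr4 1.56-fold higher (adjusted p = 0.0477). These calls of Fgfrl1 at 72 h and of Fgfr3 and Fgfr4 in NPC ended with spike-in scaling (adjusted p = 0.133, 0.0628 and 0.0561). The Fgfrl1 call also ended with median scaling, normexp and a fit of only the compared groups (adjusted p = 0.0552, 0.0741 and 0.0544). That of Fgfr3 also ended with normexp, a fit of only the compared groups and the authors' values (adjusted p = 0.275, 0.0549 and 0.059). The other Fgfr3 probe had 0.16 in NPC and was not called (adjusted p over all probes = 0.102). The Fgfr4 difference of 0.64 was 0.36 without EGFP NPC replicate 2 (adjusted p = 0.184) and 0.41 without W20 NPC replicate 1 (adjusted p = 0.192), and its call was lost in most of the other settings too. Of 4 tested epithelial markers, 1 was called higher and 2 lower with W20 at 72 h, and 3 were called higher and 0 lower in NPC. Their summed level was 64.1 to 64.7 in W20 cells against 93.1 to 95.3 in EGFP cells at 72 h, and 232 to 245 in W20 cells against 141 to 149 in EGFP cells in NPC. Almost all of this sum is from Krt8 and Krt18. Of the 5 listed, 4 were above background on both arrays of every group, and Cldn4 was on 0 of 8 arrays. The part of these markers in the differences of the ligands was not tested.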

How the data were processed

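Signals of 8 one-colour (Cy3) Agilent whole mouse genome arrays were used. The deposited scanner files hold intensity values that, per the file headers, came from Agilent Feature Extraction 10.7.3.1, whose processed signal is already background-corrected. Each array had 45018 spots, 43379 of them not controls. From these, log2 of the signal minus log2 of the array's 75th percentile was computed, outlier spots were left out and the spots of a probe averaged. Accessions were matched to RefSeq symbols (GRCm38.p6), which named 27584 probes and left 13590 unnamed. The brightest probe stood for a gene. A probe counted as above background on an array where a share of at least 0.5 of its spots were flagged so, and 13619 genes passed on both arrays of a group. limma 3.58.1 (R 4.3.3) fitted 4 group means with 4 residual degrees of freedom over all arrays, for 5 comparisons. The deposited value table holds log2 values of the authors, with unstated centring; its NPC columns matched their own arrays for 99.9% of probes within 0.05 after a shift, its 72 h columns for 19.5% to 58.5%, so it was an alternative for NPC only. Its column medians were -3.91 to -3.73 and its direction follows the arrays' signal. The fit, tested on simulated data for W20 against EGFP in NPC over 13619 genes, recovered 75% of changes of 0.5 log2 units and 89% of changes of 1.0. In that simulation 100 genes were changed by each amount, whereas 7562 were called in the real comparison. The recovered shares depend on how many genes change, so they need not hold for the real comparison.

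The members and gene lists were chosen with earlier results of these data known. All 10 members are named. From each pathway list at most the 2 called genes with the largest difference in each W20 comparison are named; Adam17, Fosl1, Etv4 and the second comparison of some named genes were added after their values were seen. Alternatives changed the scaling, the background correction (normexp, offset 50, added after the files were seen, on median signals), the filter, the choice of probe, the fit, and left out each array.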

Additional observations from a re-analysis of the deposited data

Results flagged for a closer look

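For 2 ligands the effect of W20 differed between the stages by the test of the difference itself. Hbegf had a W20 difference of -0.31 at 72 h and 0.05 in NPC, and the difference of these effects was -0.36 ± 0.051 (limma, adjusted p = 0.00476). Tgfa had 0.07 at 72 h and 0.69 in NPC, and the difference of these effects was -0.62 ± 0.092 (limma, adjusted p = 0.00574). With spike-in scaling the Hbegf call ended (-0.38, adjusted p = 0.0743). With normexp the Tgfa difference of effects was 0.02 (adjusted p = 0.93) and its NPC effect 0.14 (adjusted p = 0.267). Each rests on 1 probe with 1 spot per array, and 30.9% of all tested genes passed the same test.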

How the results depend on the processing

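The 35 differences of the 7 tested members were each recomputed in 18 to 21 settings, which gave 690 values. Of these, 658 kept their side of the threshold, 15 lost the call, 15 gained it and 2 values of called differences were reversed. Among the 658, differences that were not called could change sign. Btc for W20 in NPC, 0.49 in the main fit, was -0.067 at its lowest. The reversed values were both of Tgfa with normexp, -0.0353 for 72 h against NPC with EGFP and 0.0185 for the difference of the W20 effects. Members called numbered 3 with normexp in place of 5 for W20 in NPC, 3 with normexp in place of 6 for 72 h against NPC with EGFP, and 1 with spike-in scaling in place of 2 for the difference of the W20 effects. Leaving out each array gave 4 to 6 calls for W20 in NPC, 3 for W20 at 72 h, 6 to 7 over the 72 h with W20, 5 to 7 with EGFP and 2 to 3 for the difference of the effects. Deviations of same-numbered arrays correlated at -0.085 to 0.106, so the numbers do not pair the arrays; with the replicate block 5, 3, 6, 6 and 3 members were called, and Areg was gained in the difference of the effects (adjusted p = 0.047). Among all genes, spike-in scaling called 4763 in place of 7562 for W20 in NPC, 4210 in place of 7188 at 72 h and 1922 in place of 4207 for the difference of the effects.

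With spike-in scaling the genes called in the lists for W20 in NPC were 4 in place of 7 sheddases, 7 in place of 12 inhibitors, 7 in place of 12 cascade genes, 2 in place of 7 PI3K and STAT genes, 1 in place of 5 endocytosis genes, 0 in place of 4 genes of the FGF list and 0 in place of 1 neuregulin or epigen; quantile scaling gave 2 genes of the FGF list, and quantile and median scaling each 0 neuregulins or epigen. At 72 h spike-in scaling gave 6 in place of 12 inhibitors, 3 in place of 5 PI3K and STAT genes, 10 in place of 16 ERK-induced genes, and 1 in place of 2 endocytosis genes and genes of the FGF list each. Median scaling gave 1 of these each too, and quantile scaling 4 endocytosis genes. Of 613 recomputed values of the 30 named list results, 549 kept the call, 63 lost it and 1 was reversed, Ksr1 for W20 in NPC with normexp (-0.0051). The cause was not tested. A block for slide could not be fitted with the stage.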
